A study of Homo sapiens with 6 samples.

Results

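The 2 lines compared were HLE cells, an established human hepatocellular carcinoma line, infected with lentivirus carrying 1 of a pair of short hairpin RNAs (shRNAs) against ZNF281. The lines are called kd.1 and kd.2 after their shRNA. Both were infected at a multiplicity of infection of 10 and kept in puromycin for 7 days, and so was the control line, which carried a control shRNA. Each shRNA gave 1 line with 2 libraries. Nothing in the labels says that the duplicates came from separate cultures, so every p-value measures only the spread between these libraries. The comparison used the 4 knockdown libraries of 6 in all, and the 2 control libraries served to say which line lay farther from the control. Of 19503 named genes, 10851 reached 1 FPKM (fragments scaled to transcript length and library size) in at least 2 libraries and were tested. FPKM values carry no depth per library, so the counting error behind a value is unknown. The sum of FPKM per library ran from 512673 to 575887.

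An shRNA is cut to a small guide RNA that leads the silencing machinery to transcripts with a matching stretch. Hairpins with different guide sequences against 1 target share that target, while their other partly matched transcripts differ. ZNF281 is a zinc finger transcription factor that has been tied to epithelial-mesenchymal transition, stem cell programs and the DNA damage response. With 1 line per hairpin, the hairpin and the line it was put into cannot be told apart here.

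ZNF281 itself was at 4.35 and 4.71 FPKM in the kd.1 libraries, 4.37 and 4.47 in the kd.2 libraries and 9.52 and 8.43 in the control libraries. The libraries of kd.1 and kd.2 overlapped and both lines lay below the control. The difference between the lines was -0.03 ± 0.09 on the log2 scale (SE, limma adjusted p = 0.805). Against the control, ZNF281 differed by -0.97 ± 0.09 (adjusted p = 0.000249) in kd.1 and -1.0 ± 0.09 (adjusted p = 0.000241) in kd.2. ZNF148, the closest paralogue of ZNF281, was at 6.7 and 6.63 FPKM in kd.1, 6.67 and 6.56 in kd.2 and 5.53 and 4.74 in the control. Its difference between the lines was -0.01 ± 0.09 (adjusted p = 0.94), and the sign of both small differences depended on the scaling of the libraries. ANXA10, an annexin that was high in both knockdown lines, was not equal between them. It was at 3.18 and 3.56 FPKM in kd.1, 1.15 and 0.94 in kd.2 and 0.23 and 0.18 in the control (log2 difference -1.6 ± 0.16, limma adjusted p = 0.000212). All 4 knockdown libraries lay above the control, with kd.1 the highest and no overlap between groups.

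Between the lines, 3496 genes passed a limma adjusted p of 0.05, which is 32.2% of the genes tested. Of these, 1289 were higher in kd.2 (11.9% of the genes tested) and 2207 were lower (20.3%). That split moved with the scaling. Higher genes made up 36.9% of the calls on the deposited values, 48.5% after median-ratio scaling and 49.6% after quantile normalization. At least 2-fold differences were fewer, 238 genes or 2.19% of those tested, with 69 higher in kd.2 (0.636%) and 169 lower (1.56%). Fold changes are on the scale of log2(FPKM + 0.1), which understates the change of low genes. The 2 kd.2 libraries both lay above both kd.1 libraries in 3476 tested genes (32.0%) and below them in 4897 (45.1%). The median log2 difference over all tested genes was -0.05. The SD of the difference over genes was 0.369 between the lines, 0.147 between the kd.1 duplicates and 0.137 between the kd.2 duplicates. The count of calls rested on each library: without 1 of the 4 knockdown libraries it ran from 1408 (without kd.2 replicate 1) to 1811 (without kd.1 replicate 1). Without either control library it was 5507. The control duplicates were farther apart than those of the knockdown lines, with an SD of 0.245.

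The place of the control was used to say which line lay farther from it. Among the 3496 called genes, the control mean lay between the lines in 2003 (57.3%), against 31.9% of all tested genes. A wide gap between the lines leaves more room for a value in between, so the excess over all genes partly follows from the choice of called genes and nothing is read from it. Both lines were above the control in 607 called genes and below it in 886. The kd.1 line was the farther from the control in 1544 called genes and kd.2 in 1952. Among the 238 genes at least 2-fold apart, the control mean was between the lines in 188 (79.0%) and both control libraries were between the libraries of the lines in 145 (60.9%). In these 238 genes kd.1 was the farther line in 133 and kd.2 in 105. Among called genes of either size, kd.1 was farther in 670 of the 1289 higher genes (52.0%) and in 874 of the 2207 lower genes (39.6%). The count of 2003 was 1213 and 1169 without kd.1 replicates 1 and 2, 962 and 1121 without kd.2 replicates 1 and 2, and 3015 without control replicate 2. No test was run on the place of the control, since noise in the control mean enters it.

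**Figure D1:**
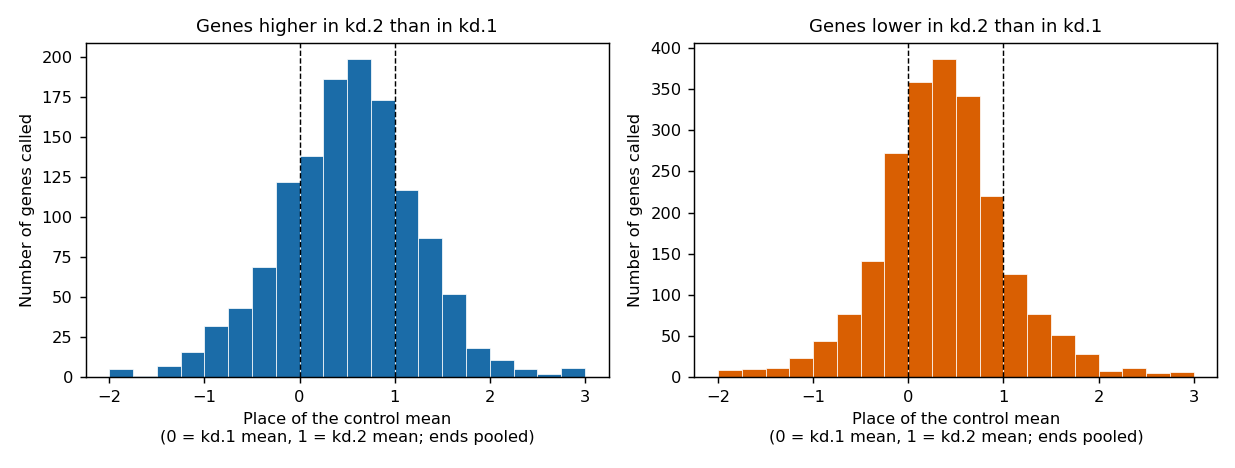
Place of the control mean on the way from the kd.1 mean (0) to the kd.2 mean (1) for each gene called between the lines, on the log2 scale, for genes higher (left) and lower (right) in kd.2. The bars count genes per step of 0.25, the dashed lines mark the lines' own means and values past the ends are pooled in the last bars. The control mean was between the lines in 696 of 1289 higher and 1307 of 2207 lower genes.

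The largest differences upward in kd.2 included a chemokine, a plasminogen activator and a neuropeptide. CCL2, a chemokine that draws monocytes (chromosome 17, 34255218 to 34257203, plus strand, GENCODE 29 on GRCh38), was at 0.45 and 0.32 FPKM in the kd.1 libraries, 5.59 and 4.97 in the kd.2 libraries and 3.94 and 5.26 in the control libraries. That is 11.2-fold (log2 difference 3.48 ± 0.17, limma adjusted p = 8.3e-06), and kd.1 stood alone below the other 4 libraries. PLAT, tissue plasminogen activator (chromosome 8, 42175233 to 42207724, minus strand), was at 0.57 and 0.43 FPKM in kd.1, 4.76 and 4.5 in kd.2 and 2.48 and 1.82 in the control (log2 difference 2.99 ± 0.17, limma adjusted p = 1.31e-05). NCEH1, a hydrolase of cholesterol esters, was at 9.15 and 9.74 FPKM in kd.1, 55.6 and 55.2 in kd.2 and 36.5 and 25.5 in the control (log2 difference 2.54 ± 0.14, limma adjusted p = 1.03e-05). For both genes the control libraries lay between the lines, so kd.1 was below and kd.2 above the control. CPA4, a secreted carboxypeptidase, was at 4.69 and 4.95 FPKM in kd.1, 20.5 and 23.1 in kd.2 and 41.5 and 36.8 in the control (log2 difference 2.15 ± 0.09, limma adjusted p = 5.55e-06). Both knockdown lines lay below the control there, kd.1 by more. GAL, which codes for the neuropeptide galanin, was at 46.4 and 48.05 FPKM in kd.1, 187 and 189.96 in kd.2 and 147 and 182 in the control (log2 difference 1.99 ± 0.09, limma adjusted p = 7.83e-06). The kd.1 libraries were the low ones, and kd.2 differed from the control by only 0.20 ± 0.09 (adjusted p = 0.116).

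The same opposite placing around the control held for further genes of this set. HEG1, a membrane protein of vessel and heart development, was at 12.1 and 11.3 FPKM in kd.2 against 3.61 and 3.43 in kd.1, with 8.98 and 6.4 in the control (log2 difference 1.7 ± 0.14, limma adjusted p = 7.72e-05). DAPK1, the death-associated protein kinase, was at 32.4 and 32.3 FPKM in kd.2 against 10.9 and 9.84 in kd.1, with 22.2 and 19.1 in the control (log2 difference 1.63 ± 0.09, limma adjusted p = 9.65e-06). TGFB3, a transforming growth factor beta ligand, was at 7.6 and 7.04 FPKM in kd.2 against 2.53 and 2.17 in kd.1, with 3.49 and 3.72 in the control (log2 difference 1.6 ± 0.11, limma adjusted p = 2.44e-05). Each of these genes was called against the control in both lines, with opposite signs. SLC5A3, a myo-inositol transporter whose annotated exons overlap those of MRPS6 on the same strand, was at 24.1 and 22.7 FPKM in kd.2 against 8.54 and 7.27 in kd.1, with 12.5 and 10.5 in the control (log2 difference 1.56 ± 0.11, limma adjusted p = 3.2e-05). Its level is uncertain for that overlap. OSMR, a receptor subunit for oncostatin M, was at 107 and 107 FPKM in kd.2 against 37.5 and 40.3 in kd.1, with 76.3 and 60.5 in the control (log2 difference 1.46 ± 0.10, limma adjusted p = 3.26e-05). UBE2J1, a ubiquitin-conjugating enzyme of the endoplasmic reticulum, was at 15.2 and 14.8 FPKM in kd.2 against 5.47 and 5.36 in kd.1, with 12.9 and 10.9 in the control (log2 difference 1.46 ± 0.09, limma adjusted p = 1.81e-05). Neither gene had overlapping libraries between any 2 of the 3 groups.

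Genes far lower in kd.2 than in kd.1 were led by SEPP1, selenoprotein P, the plasma carrier of selenium (chromosome 5, 42799880 to 42887392, minus strand). SEPP1 was at 8.85 and 11.1 FPKM in the kd.1 libraries, 0.71 and 0.85 in the kd.2 libraries and 4.08 and 3.87 in the control libraries. It was 11.4-fold lower in kd.2 (log2 difference -3.51 ± 0.13, limma adjusted p = 5.14e-06), with the control between. CDKN1C codes for the cyclin-dependent kinase inhibitor p57 (chromosome 11, 2883213 to 2885773, minus strand). Its values were 15.2 and 17.1 FPKM in kd.1, 1.35 and 1.57 in kd.2 and 6.51 and 8.72 in the control (log2 difference -3.38 ± 0.14, limma adjusted p = 5.55e-06). Against the control, CDKN1C was 1.09 ± 0.14 (adjusted p = 0.00109) in kd.1 and -2.29 ± 0.14 (adjusted p = 5.73e-05) in kd.2, opposite in sign and both past the threshold. AGR2, a disulfide isomerase of secretory epithelia, was at 4.67 and 5.27 FPKM in kd.1, 0.54 and 0.38 in kd.2 and 1.17 and 1.29 in the control (log2 difference -3.19 ± 0.16, limma adjusted p = 8.3e-06). NCCRP1, an F-box-like protein, was at 12.4 and 17.7 FPKM in kd.1, 2.11 and 1.85 in kd.2 and 5.68 and 6.16 in the control (log2 difference -2.85 ± 0.15, limma adjusted p = 9.65e-06). FXYD3, a regulator of the sodium pump, was at 32.4 and 30.7 FPKM in kd.1, 4.65 and 5.38 in kd.2 and 8.52 and 12.3 in the control (log2 difference -2.63 ± 0.15, limma adjusted p = 1.31e-05). All 3 were high in kd.1, low in kd.2 and intermediate in the control, with no overlap of libraries.

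RHOU, a small GTPase, was at 11.4 and 11.8 FPKM in kd.1, 2.27 and 2.31 in kd.2 and 4.97 and 4.01 in the control (log2 difference -2.29 ± 0.11, limma adjusted p = 8.3e-06). SCIN, an actin-severing protein, was at 3.45 and 3.5 FPKM in kd.1, 0.91 and 0.63 in kd.2 and 1.74 and 1.47 in the control (log2 difference -2.06 ± 0.17, limma adjusted p = 7.11e-05). FOXN1, a transcription factor of thymus and skin epithelium, was at 12.9 and 12.8 FPKM in kd.1, 3.06 and 3.64 in kd.2 and 5.39 and 6.78 in the control (log2 difference -1.91 ± 0.12, limma adjusted p = 2.32e-05). These again had the control between the lines. In other genes kd.2 lay nearer to the control and kd.1 stood out. TRIM31, a ubiquitin ligase, was at 17.6 and 30.9 FPKM in kd.1, 3.46 and 4.31 in kd.2 and 5.76 and 5.85 in the control (log2 difference -2.56 ± 0.24, limma adjusted p = 0.00051), and its kd.1 duplicates were themselves far apart. COL15A1, a basement membrane collagen, was at 15.1 and 19.04 FPKM in kd.1, 3.85 and 4.0 in kd.2 and 5.68 and 4.07 in the control (log2 difference -2.08 ± 0.16, limma adjusted p = 4.9e-05). FZD10, a WNT receptor, was at 11.5 and 13.1 FPKM in kd.1, 3.16 and 3.17 in kd.2 and 3.7 and 3.38 in the control (log2 difference -1.92 ± 0.10, limma adjusted p = 8.3e-06). For the last 3 genes, kd.2 did not pass the threshold against the control (adjusted p = 0.105, 0.178 and 0.23), while kd.1 did. Apart from ZNF281 and ZNF148, which were not called, and CCNB2 and PLK1 below, every gene given with its values was called in the same direction in each of the alternatives that tested it. Exons of SEPP1, KIF20A, PLK1, CCNE2 and HSPD1 overlap a coding gene on the opposite strand, and those of FXYD3, MUC1 and HOXC10 a coding model on the same strand, so part of their reads may belong elsewhere.

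**Figure D2:**
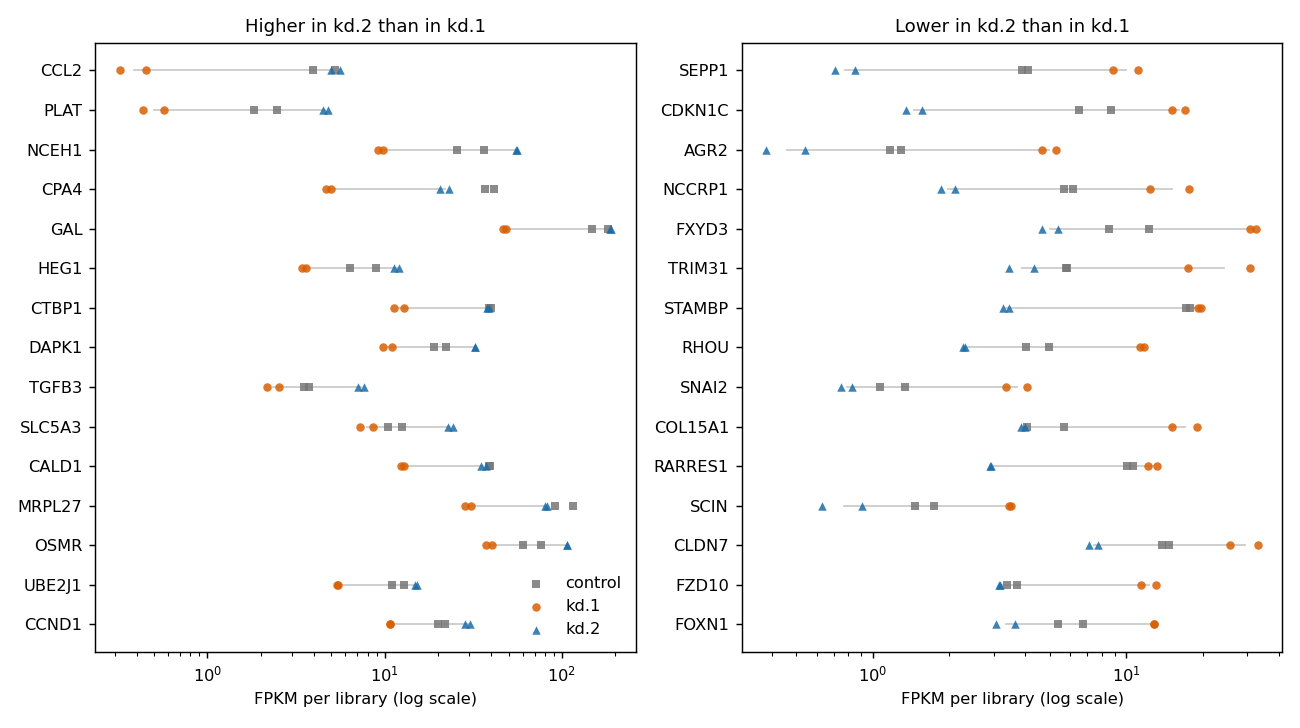
FPKM in each library (log axis) of the 15 genes with the largest difference in each direction among called genes with a mean of at least 2 FPKM in the knockdown libraries. Circles are kd.1, triangles kd.2, squares the control, and grey lines join the means of the lines. CTBP1 and CALD1 have control values beside kd.2, STAMBP and RARRES1 have them beside kd.1, and SEPP1 and CDKN1C have them between.

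A few large differences belonged to 1 line. CTBP1, a transcriptional corepressor (chromosome 4, 1211448 to 1249953, minus strand), was at 11.3 and 12.8 FPKM in the kd.1 libraries, 37.96 and 38.8 in the kd.2 libraries and 38.9 and 39.5 in the control libraries (log2 difference 1.67 ± 0.07, limma adjusted p = 6.3e-06). The kd.1 libraries alone were low: kd.1 differed from the control by -1.7 ± 0.07 (adjusted p = 9.09e-06) and kd.2 by -0.03 ± 0.07 (adjusted p = 0.753). CALD1, the actin-binding protein caldesmon, was at 12.8 and 12.4 FPKM in kd.1, 37.1 and 34.7 in kd.2 and 39.2 and 38.8 in the control (log2 difference 1.5 ± 0.06, limma adjusted p = 5.55e-06). MRPL27, a protein of the mitochondrial ribosome, was at 30.5 and 28.4 FPKM in kd.1, 82.1 and 80.2 in kd.2 and 91.2 and 115 in the control (log2 difference 1.46 ± 0.10, limma adjusted p = 3.35e-05). CALD1 was called against the control in kd.1 and not in kd.2 (adjusted p = 0.172), while MRPL27 was called in both lines, by -1.8 ± 0.10 (adjusted p = 2.04e-05) and -0.34 ± 0.10 (adjusted p = 0.0313).

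The reverse held in kd.2. STAMBP, a deubiquitinating enzyme of endosomes (chromosome 2, 73828916 to 73873659, plus strand), was at 19.2 and 19.7 FPKM in the kd.1 libraries, 3.45 and 3.27 in the kd.2 libraries and 17.9 and 17.2 in the control libraries (log2 difference -2.5 ± 0.07, limma adjusted p = 1.54e-06). Only the kd.2 libraries were low: kd.1 differed from the control by 0.15 ± 0.07 (adjusted p = 0.156) and kd.2 by -2.35 ± 0.07 (adjusted p = 2.59e-06). RARRES1, a gene induced by retinoids, was at 12.2 and 13.2 FPKM in kd.1, 2.91 and 2.93 in kd.2 and 10.6 and 10.03 in the control (log2 difference -2.08 ± 0.08, limma adjusted p = 5.14e-06). RGS19, which shortens G protein signalling, was at 13.6 and 14.8 FPKM in kd.1, 4.03 and 4.27 in kd.2 and 14.6 and 15.7 in the control (log2 difference -1.75 ± 0.08, limma adjusted p = 7.83e-06). ADGRG1, an adhesion G protein-coupled receptor, was at 1.63 and 1.34 FPKM in kd.1, 0.39 and 0.34 in kd.2 and 1.42 and 1.53 in the control (log2 difference -1.77 ± 0.15, limma adjusted p = 9.68e-05). In these 3 genes as in STAMBP the control libraries were much nearer to kd.1 than to kd.2. Whether guide RNA matches lie in these transcripts was not tested, since the guide sequences were not used here.

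Cell cycle genes are taken by phase. Cyclin D1 (CCND1), which drives cells through G1, was at 10.7 and 10.7 FPKM in kd.1, 28.5 and 30.3 in kd.2 and 21.98 and 19.99 in the control (log2 difference 1.45 ± 0.07, limma adjusted p = 8.3e-06). The control libraries lay between the lines, kd.1 being low, and its exons overlap those of LTO1 on the opposite strand. Together with CDKN1C above, 1 activator and 1 inhibitor of the G1 kinases were thus placed on opposite sides of the control in the lines. Of 20 tested D cyclin, E2F and kinase inhibitor genes, 4 were higher in kd.2 (20%, against 11.9% of all tested genes) and 6 lower (30%, against 20.3%), median log2 difference -0.02. Of these, without kd.1 replicate 1, kd.1 replicate 2, kd.2 replicate 1 and kd.2 replicate 2 in turn, 3, 3, 2 and 3 were higher (and 6 without either control library), and 4, 3, 3 and 3 were lower (and 8 without either control library). CCNE2, a cyclin of the G1 to S transition, was at 19.3 and 19.5 FPKM in kd.2 against 12.9 and 11.9 in kd.1, with 19.8 and 16.7 in the control (log2 difference 0.63 ± 0.09, limma adjusted p = 0.00113). E2F2, a transcription factor of S phase genes, was at 5.21 and 4.83 FPKM in kd.2 against 7.69 and 7.22 in kd.1, with 6.72 and 7.18 in the control (log2 difference -0.56 ± 0.09, limma adjusted p = 0.00174). Of 30 S phase and replication genes, 0 were higher in kd.2 by limma (0 also at an unadjusted p under 0.05) and 8 lower (26.7%, against 20.3% of all tested genes), median -0.13. The count of 8 rested on each library: without kd.1 replicate 1, kd.1 replicate 2, kd.2 replicate 1 and kd.2 replicate 2 in turn, 3, 4, 2 and 3 were lower (and 17 without either control library). RFC4, a clamp loader subunit whose exons overlap EIF4A2 on the opposite strand, was at 52.5 and 52.9 FPKM in kd.2 against 79.8 and 78.6 in kd.1, with 80.4 and 79.5 in the control (log2 difference -0.59 ± 0.06, limma adjusted p = 0.00017). UHRF1, which maintains DNA methylation, was at 22.1 and 22.9 FPKM in kd.2 against 29.7 and 29.6 in kd.1, with 34.95 and 32.5 in the control (log2 difference -0.40 ± 0.06, limma adjusted p = 0.0023). For both genes kd.2 was the low line and kd.1 lay nearer to the control.

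More G2 and mitosis genes were higher in kd.2 than lower. Of 30 tested, 14 were higher in kd.2 (46.7%, against 11.9% of all tested genes) and 1 was lower, with a median of 0.23 against -0.05 over all genes. The differences were small and stood near the threshold. In detail, without kd.1 replicate 1, kd.1 replicate 2, kd.2 replicate 1 and kd.2 replicate 2 in turn, 6, 6, 4 and 5 were higher (and 20 without either control library), while the median stayed between 0.19 and 0.25. HMMR, a spindle protein and hyaluronan receptor, was at 36.7 and 35.2 FPKM in kd.2 against 22.8 and 23.4 in kd.1, with 25.9 and 25.2 in the control (log2 difference 0.64 ± 0.06, limma adjusted p = 0.000168). KIF20A, a kinesin of cytokinesis, was at 35.4 and 36.5 FPKM in kd.2 against 25.9 and 26.5 in kd.1, with 33.7 and 29.2 in the control (log2 difference 0.46 ± 0.08, limma adjusted p = 0.00277). MAD2L1, of the spindle checkpoint, was at 45.2 and 46.3 FPKM in kd.2 against 33.9 and 33.8 in kd.1, with 45.6 and 43.2 in the control (log2 difference 0.44 ± 0.06, limma adjusted p = 0.000998). The kd.2 libraries lay above the kd.1 libraries in all 3, as in 32.0% of all tested genes. The control was near kd.1 for HMMR and near kd.2 for MAD2L1. CDC25B, a phosphatase that activates mitotic kinases, was the 1 member lower in kd.2, at 60.5 and 61.7 FPKM in kd.2 against 80.6 and 79.6 in kd.1, with 86.5 and 93.5 in the control (log2 difference -0.39 ± 0.06, limma adjusted p = 0.0021).

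Many mitotic genes carry a cell cycle homology region near their start, a site bound by the DREAM and MuvB complexes. The letters TTTGAA of that element were searched on both strands of the RefSeq promoter (GRCh38.p14, 250 bases before to 50 after the start). They were present in 14 of the 24 listed genes that had a promoter (58.3%) and in 9.5% of the 8940 tested genes with one. Of these 14 genes, 9 were higher in kd.2 and 0 lower, while of all 24 listed promoters 13 belonged to genes higher in kd.2 and 1 to a gene lower. The stretches of 5 members called higher are shown because the element is the sequence they share. Capitals mark the first match, which in HMMR is followed by a second copy in lower case, and each is written on the strand of its gene, 5′ to 3′.
HMMR: aatgtggggagaTTTGAAtttgaaaccggt
MAD2L1: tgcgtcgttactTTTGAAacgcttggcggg
CENPF: ggctgcgggcagTTTGAAttag
CCNB2: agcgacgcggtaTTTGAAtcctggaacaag
PLK1: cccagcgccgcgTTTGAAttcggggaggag
They lie at chr5:163460592-163460621 (plus strand), chr4:120066807-120066836 (minus), chr1:214603223-214603244 (plus), chr15:59105105-59105134 (plus) and chr16:23678848-23678877 (plus). A match of letters is a description and not a site in use. CENPF, a kinetochore protein, was at 27.4 and 27.9 FPKM in kd.2 against 20.3 and 21.1 in kd.1, with 24.1 and 21.6 in the control (log2 difference 0.42 ± 0.07, limma adjusted p = 0.00308). CCNB2, a mitotic cyclin, was at 68.5 and 67.3 FPKM in kd.2 against 55.6 and 56.1 in kd.1, with 75.2 and 76.99 in the control (log2 difference 0.28 ± 0.06, limma adjusted p = 0.00647). PLK1, a mitotic kinase, was at 140.4 and 149 FPKM in kd.2 against 120.1 and 119 in kd.1, with 145 and 142 in the control (log2 difference 0.27 ± 0.06, limma adjusted p = 0.0102). The CENPF call held in each alternative, while CCNB2 and PLK1 lost theirs without any 1 of the 4 knockdown libraries, with an adjusted p of up to 0.0856 and 0.13. All 3 had higher values in both kd.2 libraries than in both kd.1 libraries, as did 32.0% of all tested genes. Since the 3 were picked among called genes, this adds nothing to their calls. CENPF, CCNB2 and PLK1 were chosen after their values were seen.

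**Figure D3:**
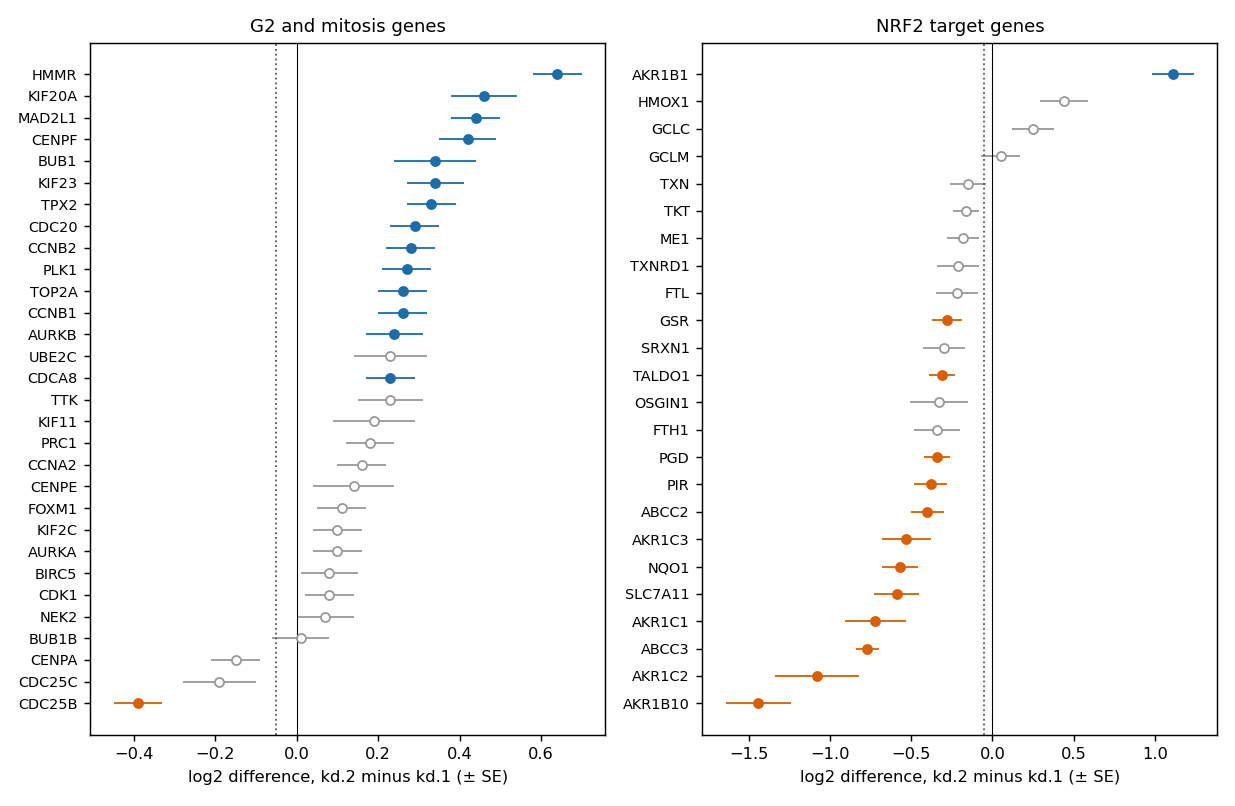
Log2 difference kd.2 minus kd.1 with its SE for the tested members of the G2 and mitosis list (30 genes, left) and the NRF2 target list (24 of its 25 genes drawn, right). Filled points passed a limma adjusted p of 0.05 (blue higher, orange lower in kd.2), open points did not, and the dotted line is the median of all tested genes, -0.05. The left panel has 14 genes called higher and 1 lower, the right panel 1 higher and 12 lower.

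Among inflammatory genes more were called higher in kd.2 than lower, and the 2 called lower coded for interleukin 1. Of 21 tested members of the inflammatory and NF-kB list, 10 were higher in kd.2 (47.6%, against 11.9% of all tested genes). Another 2 were lower (9.52%, against 20.3%) and 9 did not pass. The median was 0.23, against -0.05 over all tested genes. ICAM1, an adhesion molecule for leukocytes, was at 2.66 and 2.64 FPKM in kd.1, 5.97 and 6.47 in kd.2 and 4.65 and 4.1 in the control (log2 difference 1.2 ± 0.10, limma adjusted p = 7.46e-05). The acute phase gene SAA1 was at 0.53 and 0.44 FPKM in kd.1, 2.47 and 1.99 in kd.2 and 3.68 and 5.62 in the control (log2 difference 1.99 ± 0.20, limma adjusted p = 0.000225), and reads shared with its near-identical copy SAA2 leave its level uncertain. RELB, an NF-kB subunit, was at 1.37 and 1.65 FPKM in kd.1, 2.84 and 2.75 in kd.2 and 2.9 and 2.56 in the control (log2 difference 0.85 ± 0.13, limma adjusted p = 0.00138). In all 3 genes the kd.1 libraries were lowest, and kd.2 was at or nearer to the control level. IL1B, the cytokine interleukin 1 beta, was at 1.23 and 1.66 FPKM in kd.1, 0.19 and 0.12 in kd.2 and 0.78 and 0.74 in the control (log2 difference -2.6 ± 0.20, limma adjusted p = 5.8e-05). IL1A was at 1.06 and 1.15 FPKM in kd.1, 0.17 and 0.18 in kd.2 and 0.31 and 0.27 in the control (log2 difference -2.13 ± 0.17, limma adjusted p = 7.11e-05). Both interleukin genes were low throughout, highest in kd.1 and lowest in kd.2. Leaving out kd.1 replicate 1 or kd.2 replicate 2 left 7 members higher.

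The subunit NFKB1 was at 15.3 and 15.8 FPKM in kd.2 against 10.9 and 11.2 in kd.1, with 13.1 and 11.2 in the control (log2 difference 0.49 ± 0.09, limma adjusted p = 0.00342). NFKBIA, the inhibitor that holds NF-kB in the cytoplasm, was at 65.3 and 62.9 FPKM in kd.2 against 47.3 and 47.8 in kd.1, with 66.2 and 64.96 in the control (log2 difference 0.43 ± 0.06, limma adjusted p = 0.000913). Both carry an NF-kB site in the RefSeq promoter and are classic targets of the factor. The site was found in 8 of 16 listed genes with a promoter (50%) and in 6.5% of the 8940 tested genes with one, searched on both strands. Of the 8, 2 were higher in kd.2 and 0 lower, while of all 16 listed promoters 6 belonged to genes higher in kd.2 and 2 to genes lower. The stretches of those 2 are shown with the site in capitals.
NFKBIA: gtcaggctcgGGGAATTTCCaagccagtca
NFKB1: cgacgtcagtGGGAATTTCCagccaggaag
Both are on the plus strand of GRCh38.p14, at chr14:35404811-35404840 and chr4:102501300-102501329, which is opposite to the strand of NFKBIA. The same 10 letters stand in both. SAA1, RELB, NFKB1 and NFKBIA were chosen after their values were seen.

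Epithelial genes differed in both directions. Of 19 tested secretory and barrier genes, 5 were higher in kd.2 (26.3%, against 11.9% of all tested genes) and 10 lower (52.6%, against 20.3%). The median of the list was -0.53, though it rose to 0.08 with a minimum of 5 FPKM, which leaves 12 members. Without either kd.2 replicate 3 of them were higher. PSCA, a membrane antigen of prostate and stomach, was at 150.00 and 159.8 FPKM in kd.2 against 385 and 381 in kd.1, with 218 and 264 in the control (log2 difference -1.31 ± 0.09, limma adjusted p = 3.81e-05). S100P, a calcium-binding protein, was at 370.4 and 354 FPKM in kd.2 against 615 and 745 in kd.1, with 247 and 319 in the control (log2 difference -0.90 ± 0.13, limma adjusted p = 0.00121). MUC13, a membrane mucin, was at 4.84 and 4.99 FPKM in kd.2 against 12.2 and 15.1 in kd.1, with 5.34 and 5.28 in the control (log2 difference -1.45 ± 0.11, limma adjusted p = 4.08e-05). The kd.1 libraries were the highest for each. MUC1, another membrane mucin, was at 101 and 109 FPKM in kd.2 against 60.7 and 69.4 in kd.1, with 132 and 152 in the control (log2 difference 0.69 ± 0.09, limma adjusted p = 0.000838). EHF, an epithelial ETS factor, was at 37.1 and 36.8 FPKM in kd.2 against 25.9 and 24.9 in kd.1, with 40.2 and 36.5 in the control (log2 difference 0.54 ± 0.07, limma adjusted p = 0.000665). For MUC1 and EHF kd.1 was the lowest group, so members of the list differed in direction. S100P, MUC1 and EHF were chosen after their values were seen.

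Keratins also differed in both directions, at high levels. The simple epithelial pair KRT8 and KRT18 was lower in kd.1. KRT8 was at 593 and 645 FPKM in kd.1, 1155 and 1181 in kd.2 and 1309 and 1315 in the control (log2 difference 0.92 ± 0.08, limma adjusted p = 0.000108). KRT18 was at 499 and 547 FPKM in kd.1, 1008 and 1039 in kd.2 and 1123 and 1179 in the control (log2 difference 0.97 ± 0.08, limma adjusted p = 8.94e-05). KRT17, a keratin of basal and stressed epithelium, was at 891 and 1149 FPKM in kd.1, 263 and 277 in kd.2 and 213 and 224 in the control (log2 difference -1.9 ± 0.11, limma adjusted p = 1.43e-05). KRT80 was at 30.3 and 32.3 FPKM in kd.1, 11.1 and 11.9 in kd.2 and 22.3 and 21.3 in the control (log2 difference -1.44 ± 0.07, limma adjusted p = 8.3e-06). In kd.1 relative to kd.2, KRT8 and KRT18 were thus low and KRT17 and KRT80 high. Their libraries did not overlap between the lines, which also held for 32.0% (kd.2 above) and 45.1% (kd.2 below) of all tested genes. Keratins have many near-identical copies, and KRT8 and KRT18 overlap on opposite strands in the annotation, so reads may be shared. Of 9 tested keratins, 2 were higher in kd.2 (22.2%, against 11.9% of all tested genes) and 3 lower (33.3%, against 20.3%). Among 13 tight junction genes, 3 were higher and 3 lower (23.1% each, against 11.9% and 20.3% of all tested genes). Without either control library 5 were higher and 4 lower, quantile normalization gave 5 higher and 2 lower, and 2 were higher without kd.2 replicate 1. CLDN7 was at 7.14 and 7.72 FPKM in kd.2 against 25.8 and 33.05 in kd.1, with 13.8 and 14.8 in the control (log2 difference -1.96 ± 0.11, limma adjusted p = 1.31e-05), with exons that overlap ELP5 on the opposite strand. CLDN12 was at 14.1 and 14.6 FPKM in kd.2 against 6.35 and 6.79 in kd.1, with 12.6 and 10.5 in the control (log2 difference 1.12 ± 0.10, limma adjusted p = 9.44e-05). CLDN1 was at 51.7 and 49.8 FPKM in kd.2 against 31.6 and 29.3 in kd.1, with 47.5 and 39.05 in the control (log2 difference 0.74 ± 0.09, limma adjusted p = 0.000669). These claudins, which seal the space between epithelial cells, did not move as 1 group. Of 9 desmosome genes 0 passed the limma threshold, with 2 higher and 1 lower at an unadjusted p under 0.05. Without either control library 3 were higher, and 3 or 4 were lower. Of 10 integrin subunits 0 were higher and 1 was lower by limma (1 and 1 at an unadjusted p under 0.05). The 1 lower call was lost without any 1 of the 4 knockdown libraries and under each of the 3 other scalings, and without either control library 2 were higher.

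Of 9 tested transcription factors and filament genes of epithelial-mesenchymal transition, 3 were higher in kd.2, 3 lower and 3 did not pass, and without kd.1 replicate 1, kd.1 replicate 2, kd.2 replicate 1 and kd.2 replicate 2 in turn, 2, 1, 1 and 2 were higher (and 3 without either control library), and 2, 2, 2 and 2 were lower (and 5 without either control library). With all libraries 33.3% of these genes were called in each direction, against 11.9% higher and 20.3% lower among all tested genes. SNAI2, the repressor Slug (chromosome 8, 48917604 to 48921740, minus strand), was at 3.36 and 4.05 FPKM in kd.1, 0.75 and 0.83 in kd.2 and 1.34 and 1.07 in the control (log2 difference -2.09 ± 0.15, limma adjusted p = 3.95e-05). TWIST2 was at 11.2 and 9.91 FPKM in kd.1, 18.6 and 18.1 in kd.2 and 17.4 and 19.1 in the control (log2 difference 0.79 ± 0.08, limma adjusted p = 0.000265). SNAI2 was highest in kd.1, while TWIST2 was lowest there and near the control in kd.2. Most collagen chains were lower in kd.2. Of 12 tested, 8 were called lower (66.7%, against 20.3% of all tested genes) and 1 higher (8.33%, against 11.9%), median -0.42. For the chains, without kd.1 replicate 1, kd.1 replicate 2, kd.2 replicate 1 and kd.2 replicate 2 in turn, 6, 4, 4 and 6 were lower (and 10 without either control library). COL1A1, of fibrillar collagen, was at 0.45 and 0.52 FPKM in kd.2 against 1.06 and 1.39 in kd.1, with 0.58 and 0.55 in the control (log2 difference -1.17 ± 0.17, limma adjusted p = 0.00142). COL5A1, also fibrillar, was at 5.95 and 6.45 FPKM in kd.2 against 9.96 and 9.39 in kd.1, with 9.6 and 8.27 in the control (log2 difference -0.63 ± 0.09, limma adjusted p = 0.00149). COL4A5, of basement membranes, was at 6.02 and 6.6 FPKM in kd.2 against 10.97 and 11.6 in kd.1, with 8.34 and 6.44 in the control (log2 difference -0.83 ± 0.12, limma adjusted p = 0.00125). COL17A1, of hemidesmosomes, was at 0.87 and 1.16 FPKM in kd.2 against 2.01 and 2.49 in kd.1, with 1.39 and 1.31 in the control (log2 difference -1.08 ± 0.16, limma adjusted p = 0.00163). The kd.1 libraries exceeded the kd.2 libraries in each, as in 45.1% of all tested genes, and for COL5A1 the kd.1 libraries overlapped the control. LAMA3, a laminin chain of epithelial basement membranes, was at 2.85 and 3.11 FPKM in kd.2 against 5.64 and 6.27 in kd.1, with 2.72 and 2.56 in the control (log2 difference -0.97 ± 0.10, limma adjusted p = 0.000257). The proteoglycan decorin (DCN), a fibroblast marker found in every library, was at 38.6 and 37.9 FPKM in kd.2 against 98.5 and 86.03 in kd.1, with 72.5 and 73.3 in the control (log2 difference -1.27 ± 0.07, limma adjusted p = 1.38e-05). The 10 fibroblast markers summed to 283 to 303 FPKM in kd.1, 232 to 233 in kd.2 and 271 to 285 in the control. DCN alone made up most of the gap between the lines. Of the 3 markers tested, COL1A1 and DCN were the 2 called lower and 1 was not called, while 3 markers stayed below 0.1 FPKM in every library. The markers include COL1A1, COL1A2 and COL3A1, so they are not independent of the collagen chains. What lies behind the collagen values was not tested.

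Targets of NRF2, the transcription factor of the oxidant response, were lower in kd.2 than in kd.1. Against the control, the median of the list was 0.35 in kd.1 and 0.01 in kd.2, so kd.1 was the line farther away. Of 25 tested, 13 were lower (52.0%, against 20.3% of all tested genes) and 1 higher (4.0%, against 11.9%). The median was -0.33, against -0.05 over all tested genes. The count rested on single libraries. It was 5 lower without kd.1 replicate 1, 5 without kd.2 replicate 1, 3 without kd.2 replicate 2 and 14 without kd.1 replicate 2, with medians from -0.48 to -0.17. AKR1B10, an aldo-keto reductase, was at 8.16 and 4.96 FPKM in kd.1, 2.44 and 2.12 in kd.2 and 4.13 and 4.0 in the control (log2 difference -1.44 ± 0.20, limma adjusted p = 0.000958). ABCC3, an export pump for conjugates, was at 37.6 and 37.5 FPKM in kd.1, 21.1 and 23.03 in kd.2 and 29.3 and 27.6 in the control (log2 difference -0.77 ± 0.07, limma adjusted p = 0.000114). In both genes kd.1 lay above and kd.2 below the control, and kd.1 replicate 1 was the highest library. AKR1B1, the aldose reductase, went the other way, at 2644 and 2064 FPKM in kd.1, 5258 and 4822 in kd.2 and 4109.8 and 4421 in the control (log2 difference 1.11 ± 0.13, limma adjusted p = 0.000496). The element TGACNNNGC was in 5 of 18 listed promoters (27.8%) and in 15.3% of all 8940, on either strand, and 2 of the 5 genes were lower in kd.2. Of all 18 listed promoters, 8 belonged to genes lower in kd.2 and 1 to a gene higher. The AKR1C genes of the list share near-identical sequence and are not described singly.

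Of 23 tested genes of serine, asparagine and amino acid supply, 10 were lower in kd.2 (43.5%, against 20.3% of all tested genes). Only 1 was higher (4.35%, against 11.9%), and the median was -0.13. Many of these genes answer to ATF4, the transcription factor of amino acid stress. PHGDH, the first enzyme of serine synthesis, was at 37.8 and 35.2 FPKM in kd.1, 19.8 and 19.6 in kd.2 and 17.8 and 17.9 in the control (log2 difference -0.89 ± 0.06, limma adjusted p = 3.91e-05). CBS, which uses serine to make cystathionine, was at 18.5 and 19.8 FPKM in kd.1, 12.7 and 13.5 in kd.2 and 12.6 and 12.3 in the control (log2 difference -0.54 ± 0.07, limma adjusted p = 0.000829). SLC7A5, a carrier of large neutral amino acids, was at 559 and 586 FPKM in kd.1, 379 and 397 in kd.2 and 374 and 342 in the control (log2 difference -0.56 ± 0.08, limma adjusted p = 0.000993). The kd.1 libraries were the high ones and kd.2 lay near the control. SLC1A4, a carrier of serine and alanine, was at 4.37 and 3.63 FPKM in kd.1, 2.01 and 2.11 in kd.2 and 2.3 and 2.21 in the control (log2 difference -0.92 ± 0.12, limma adjusted p = 0.0007). ATF4 was at 279.7 and 290.4 FPKM in kd.1, 180.4 and 178 in kd.2 and 177 and 216 in the control (log2 difference -0.67 ± 0.09, limma adjusted p = 0.00102). CHAC1, a glutathione-degrading ATF4 target, was at 6.55 and 5.51 FPKM in kd.1, 2.82 and 2.7 in kd.2 and 2.58 and 3.7 in the control (log2 difference -1.09 ± 0.16, limma adjusted p = 0.00138). For these kd.1 was again the high group. SLC7A5 was chosen after its values were seen. In the list, without kd.1 replicate 1, kd.1 replicate 2, kd.2 replicate 1 and kd.2 replicate 2 in turn, 9, 8, 7 and 6 were lower (and 11 without either control library).

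Of 24 sterol synthesis and uptake genes, 9 were lower in kd.2 (37.5%, against 20.3% of all tested genes). Only 1 was higher (4.17%, against 11.9%), and the median was -0.26. Here, without kd.1 replicate 1, kd.1 replicate 2, kd.2 replicate 1 and kd.2 replicate 2 in turn, 4, 10, 4 and 3 were lower (and 15 without either control library). IDI1, an isomerase of the mevalonate pathway, was at 68.7 and 55.1 FPKM in kd.1, 40.1 and 34.5 in kd.2 and 55.9 and 53.3 in the control (log2 difference -0.72 ± 0.11, limma adjusted p = 0.00156). MSMO1, a sterol demethylating oxidase, was at 54.5 and 40.99 FPKM in kd.1, 31.4 and 27.9 in kd.2 and 50.3 and 49.5 in the control (log2 difference -0.67 ± 0.12, limma adjusted p = 0.00369). MVD, a mevalonate decarboxylase, was at 55.9 and 49.5 FPKM in kd.1, 36.6 and 35.5 in kd.2 and 51.2 and 55.7 in the control (log2 difference -0.54 ± 0.08, limma adjusted p = 0.00114). For all 3 it was kd.2 that lay below the control, and kd.1 replicate 1 was above kd.1 replicate 2. The sterol element TCACNCCAC was in 1 of 18 listed promoters (5.6%) and in 1.1% of the 8940. That 1 promoter was of SREBF2, which was not called. The 8 listed promoters of genes lower in kd.2 lacked the element.

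In the list of EGF signalling and MAPK feedback genes, more members were called higher in kd.2 than lower. Of 20 EGF ligand, receptor and MAPK feedback genes, 8 were higher in kd.2 (40%) and 3 lower, median 0.28. Quantile normalization gave 13 higher and 1 lower with a median of 0.5, a common FPKM sum gave 1 lower, and without kd.1 replicate 1, kd.1 replicate 2, kd.2 replicate 1 and kd.2 replicate 2 in turn, 7, 7, 7 and 7 were higher (and 12 without either control library), and 2, 2, 1 and 2 were lower (and 3 without either control library). EREG, an EGF receptor ligand, was at 11.3 and 11.3 FPKM in kd.1, 28.6 and 27.7 in kd.2 and 12.5 and 9.44 in the control (log2 difference 1.31 ± 0.12, limma adjusted p = 0.000114). PHLDA1, a gene induced by MAPK signalling, was at 4.55 and 4.72 FPKM in kd.1, 7.92 and 7.96 in kd.2 and 5.93 and 5.7 in the control (log2 difference 0.76 ± 0.08, limma adjusted p = 0.000257). ETV5, an ETS factor downstream of that pathway, was at 10.7 and 12.2 FPKM in kd.1, 18.7 and 18.7 in kd.2 and 13.2 and 11.8 in the control (log2 difference 0.71 ± 0.09, limma adjusted p = 0.000642). EREG and ETV5 were high in kd.2 alone. SPRED1, an inhibitor of RAS signalling, was at 1.88 and 1.84 FPKM in kd.1, 3.79 and 3.42 in kd.2 and 3.71 and 3.09 in the control (log2 difference 0.92 ± 0.12, limma adjusted p = 0.000742), low in kd.1 alone. DUSP1, a phosphatase of MAP kinases, was higher in kd.1, at 33.3 and 38.9 FPKM in kd.1, 24.1 and 26.3 in kd.2 and 24.7 and 25.7 in the control (log2 difference -0.51 ± 0.09, limma adjusted p = 0.00262), and was chosen after its values were seen. The list thus held members high in either line. Of 27 other receptor tyrosine kinase and ligand genes, 8 were higher, 4 lower and 15 did not pass, and without kd.1 replicate 1, kd.1 replicate 2, kd.2 replicate 1 and kd.2 replicate 2 in turn, 6, 7, 5 and 6 were higher (and 9 without either control library), and 2, 2, 3 and 2 were lower (and 4 without either control library). Of 17 immediate early and NR4A genes, 6 were higher and 5 lower, and without kd.1 replicate 1, kd.1 replicate 2, kd.2 replicate 1 and kd.2 replicate 2 in turn, 4, 6, 3 and 5 were higher (and 8 without either control library). In the receptor tyrosine kinase list 29.6% were higher and 14.8% lower with all libraries, and in the immediate early list 35.3% and 29.4%. Among all tested genes these shares were 11.9% and 20.3%. Members of these lists that were higher in kd.2 are given next. EPHA2, an ephrin receptor, was at 40.9 and 43.5 FPKM in kd.1, 76.5 and 80.7 in kd.2 and 50.6 and 44.4 in the control (log2 difference 0.90 ± 0.08, limma adjusted p = 9.68e-05). FGF2, whose exons overlap NUDT6 on the opposite strand, was at 11.5 and 10.00 FPKM in kd.1, 22.5 and 21.03 in kd.2 and 12.1 and 9.66 in the control (log2 difference 1.01 ± 0.11, limma adjusted p = 0.000412). FOSL1, an AP-1 subunit, was at 12.1 and 11.4 FPKM in kd.1, 20.7 and 20.1 in kd.2 and 13.2 and 12.97 in the control (log2 difference 0.79 ± 0.07, limma adjusted p = 9.66e-05). In these genes both kd.2 libraries were above the other 4. MYC, a growth-promoting transcription factor, was at 98.3 and 105 FPKM in kd.1, 137 and 147 in kd.2 and 101 and 100.04 in the control (log2 difference 0.48 ± 0.07, limma adjusted p = 0.000998). For EPHA2, FGF2, FOSL1 and MYC the kd.1 libraries were near the control and kd.2 was the high line.

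Of 14 tested targets of YAP and TEAD, 6 were higher in kd.2 (42.9%, against 11.9% of all tested genes). Another 3 were lower (21.4%, near the 20.3% of all tested genes), and the median was 0.36. F3, tissue factor of blood clotting, was at 24.5 and 23.8 FPKM in kd.2 against 13.7 and 13.00 in kd.1, with 16.1 and 15.5 in the control (log2 difference 0.85 ± 0.07, limma adjusted p = 5.8e-05). CYR61, a matrix protein, was at 43.9 and 45.7 FPKM in kd.2 against 32.5 and 27.2 in kd.1, with 39.4 and 41.9 in the control (log2 difference 0.59 ± 0.09, limma adjusted p = 0.00145). AMOTL2, a binding partner of YAP, was at 18.9 and 19.7 FPKM in kd.2 against 13.4 and 13.8 in kd.1, with 19.1 and 18.6 in the control (log2 difference 0.51 ± 0.07, limma adjusted p = 0.000737). Both kd.2 values exceeded both kd.1 values for each, as in 32.0% of all tested genes. Fewer YAP and TEAD targets were called in either direction without any 1 of the 4 knockdown libraries. The median of the list then lay between 0.27 and 0.36. In the TGF-beta family, 4 of 15 genes were higher (26.7%, against 11.9%) and 2 lower (13.3%, against 20.3%), median 0.11. Fewer of this family were higher without any 1 of the 4 knockdown libraries. TGFB1 was at 60.5 and 65.5 FPKM in kd.2 against 36.04 and 38.8 in kd.1, with 47.7 and 46.3 in the control (log2 difference 0.75 ± 0.07, limma adjusted p = 0.000126). BMP2 was at 9.15 and 8.9 FPKM in kd.2 against 21.1 and 23.6 in kd.1, with 8.77 and 8.22 in the control (log2 difference -1.3 ± 0.08, limma adjusted p = 1.81e-05). TGFBI, a matrix protein induced by TGF-beta, was at 8.77 and 9.25 FPKM in kd.2 against 20.4 and 19.9 in kd.1, with 21.6 and 20.04 in the control (log2 difference -1.15 ± 0.07, limma adjusted p = 1.81e-05). The ligands TGFB1 and TGFB3 were high in kd.2 while the induced gene TGFBI was low there. Among protease inhibitors, TIMP3 was at 64.2 and 63.7 FPKM in kd.2 against 30.4 and 30.9 in kd.1, with 54.6 and 53.2 in the control (log2 difference 1.06 ± 0.06, limma adjusted p = 9.65e-06). TIMP4 was at 1.04 and 1.07 FPKM in kd.2 against 2.46 and 2.22 in kd.1, with 1.8 and 2.2 in the control (log2 difference -1.08 ± 0.13, limma adjusted p = 0.000618). SERPINE2, an inhibitor of plasminogen activators and thrombin, was at 53.5 and 53.5 FPKM in kd.2 against 30.3 and 29.6 in kd.1, with 33.1 and 30.3 in the control (log2 difference 0.84 ± 0.07, limma adjusted p = 5.71e-05). TIMP3 was low in kd.1, TIMP4 was low in kd.2, and SERPINE2 was high in kd.2.

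**Figure D4:**
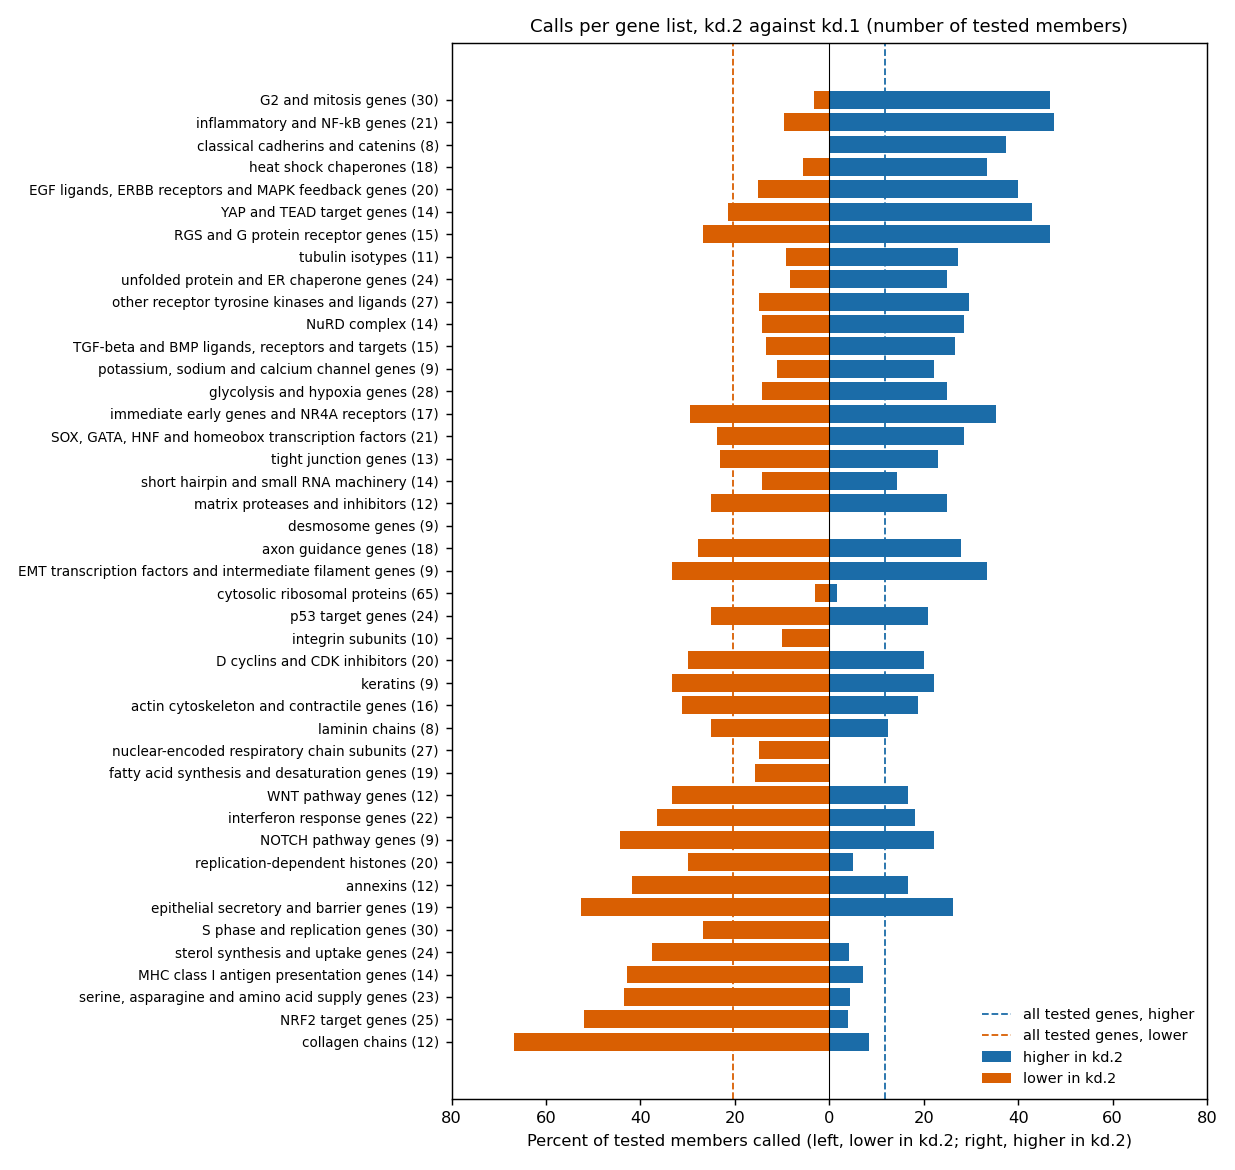
Percent of tested members called higher (right, blue) or lower (left, orange) in kd.2 than in kd.1 for each gene list with at least 8 tested members, numbers of members in brackets. Dashed lines give the same for all tested genes, 11.9% higher and 20.3% lower. Collagen chains (66.7%), epithelial secretory genes (52.6%) and NRF2 targets (52.0%) have the longest bars to the left, G2 and mitosis genes and inflammatory genes are among the longest to the right.

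Further lists gave few calls or calls in both directions, beside 11.9% higher and 20.3% lower among all tested genes. Of 65 cytosolic ribosomal protein genes, 1 was higher in kd.2 (1.54%) and 2 lower (3.08%), median -0.08. Of these, without kd.1 replicate 1, kd.1 replicate 2, kd.2 replicate 1 and kd.2 replicate 2 in turn, 0, 0, 0 and 0 were lower (and 23 without either control library). Of 27 nuclear-encoded respiratory chain subunits, 0 were higher by limma (1 at an unadjusted p under 0.05) and 4 lower, median -0.11, and without kd.1 replicate 1, kd.1 replicate 2, kd.2 replicate 1 and kd.2 replicate 2 in turn, 0, 0, 0 and 0 were lower (and 12 or 13 without a control library). Of 24 p53 targets, 5 were higher (20.8%) and 6 lower (25%, near the 20.3% of all tested genes), median -0.10, and without kd.1 replicate 1, kd.1 replicate 2, kd.2 replicate 1 and kd.2 replicate 2 in turn, 2, 1, 1 and 1 were higher (and 5 without either control library), and 2, 2, 3 and 1 were lower (and 8 without either control library). Of 14 genes of small RNA processing, 2 were higher and 2 lower (14.3% each, near the shares of all tested genes), median -0.06. The share of respiratory chain subunits called lower, 14.8%, was also below that of all tested genes. Hepatocyte markers were nearly silent, as 14 of 26 stayed below 0.1 FPKM in every library, and of the 4 tested 3 were lower in kd.2. The labelled origin of HLE in liver was not visible in most of these markers in any line. Markers of endothelial, leukocyte, erythroid and neuronal cells summed to at most 34.0 FPKM per library in each list alone.

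Called genes lay on each tested chromosome from 1 to 22 and on X. The median difference per chromosome ran from -0.108 on chromosome 6 to -0.013 on chromosome 5. Over 973 runs of 50 neighbouring tested genes, the middle 90% of medians lay between -0.146 and 0.039. The lowest run lay on chromosome 6 from 17393216 to 27808701 (GENCODE 29, GRCh38), with a median of -0.291. It held 20 histone genes, and 22 of its 50 genes were lower in kd.2 and 4 higher. Its median against the control was 0.271 in kd.1 and -0.039 in kd.2. The next lowest was on chromosome 15 from 40764020 to 44415758, with a median of -0.26, and held 0 histone genes. There 19 of 50 genes were lower in kd.2 and 1 was higher, and 41 had a negative difference. Its median was 0.214 in kd.1 and -0.094 in kd.2 against the control. In both of these runs kd.1 was the line farther from the control. Farther along the low stretch of chromosome 6 it was kd.2. There the run from 26198851 to 30557174 had a median of -0.24 between the lines. Its median against the control was 0.046 in kd.1 and -0.193 in kd.2. Neighbouring runs share genes, and no test was run on them.

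**Figure D5:**
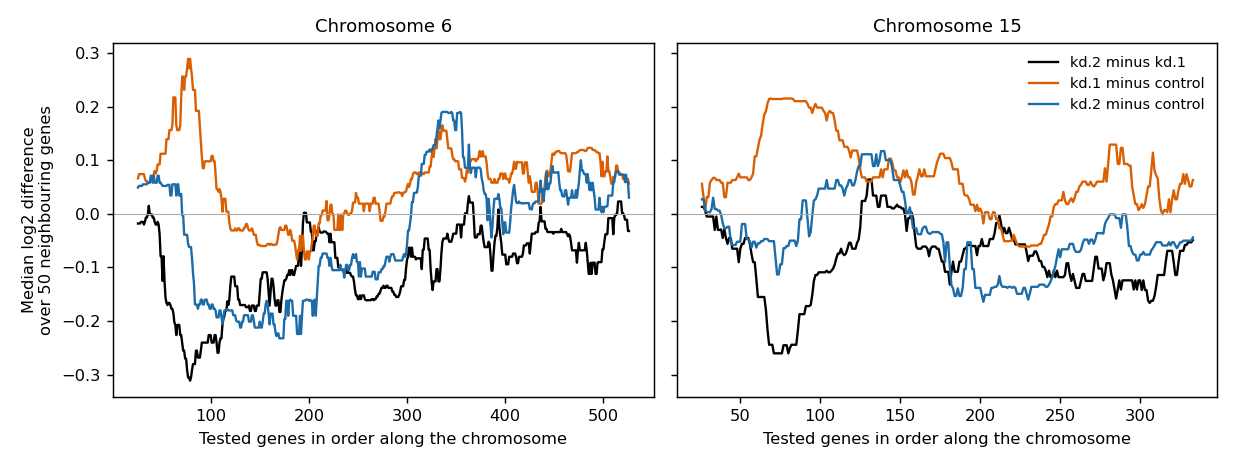
Running median of the log2 difference over 50 neighbouring tested genes, in gene order along chromosomes 6 (left) and 15 (right), for kd.2 minus kd.1 (black), kd.1 minus control (orange) and kd.2 minus control (blue). The low stretches of the black line reach below -0.25 on both chromosomes. They coincide with a raised kd.1 line on chromosome 15 and in the first part of the stretch on chromosome 6. Farther along that stretch the kd.1 line falls back and the kd.2 line is low. The lines drawn share libraries.

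The calls also leaned with transcript length and level. Of the 2695 genes with the shortest transcripts 24.0% were lower in kd.2 and 8.57% higher, and of the 2693 with the longest 14.7% and 12.4%. Of the 2713 genes with the lowest level 24.0% were lower and 7.85% higher, with a median of -0.153, and of the 2713 with the highest 16.4% and 14.1%, with a median of -0.003. Named genes with a value above 0 numbered 18048 to 18452 in the kd.1 libraries and 17687 to 17815 in the kd.2 libraries. The part of these features in the excess of genes lower in kd.2 was not tested.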

How the data were processed

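Gene expression in HLE cells was measured by RNA sequencing in 6 libraries, 2 for each of kd.1, kd.2 and control. The authors deposited 1 table of FPKM per gene and library; the unit was inferred from the values, since the labels do not name it. HISAT2 2.0.4, Bowtie2 2.2.5 and RSEM 1.2.12 are named in the submitters' processing notes, which also list GRCh38.p11 and hg38 without saying what each was used for. Strandedness and depth are not given in the sources used here.

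Of 21372 features, 1869 without a gene name were dropped. Genes with at least 1 FPKM in 2 or more of 6 libraries were tested on log2(FPKM + 0.1) with limma (3.58.1; R 4.3.3). Each of the 3 groups had its own mean, all 6 libraries shared the estimate of spread, and the moderation was robust and followed the intensity trend. Residual degrees of freedom were 3, and a median of 8.64 once moderated. Benjamini-Hochberg adjustment ran over all tested genes, with calls at an adjusted p under 0.05. The design had provided a count test, which FPKM cannot use. Errors are SE of the log2 difference. The script was tested on simulated data. Alternatives changed the pseudocount, filter, scaling, moderation, block and libraries.

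Named genes were ZNF281, ZNF148 and ANXA10, the 15 called genes with the largest difference in each direction among those with non-overlapping libraries and a mean of at least 2 FPKM, the 8 in each direction with both control libraries between the lines and the largest smaller distance to the control, and up to 4 tested members with the smallest p per gene list (53 lists); genes outside the rule are marked in the text. Members and lists were chosen with earlier results of these data known. GENCODE 29 matched 10770 tested genes. The list of mitochondrially encoded genes matched no row and is not analysed here, and 0 squamous keratinocyte markers were tested. Promoters came from RefSeq. A few genes counted in the lists are not reported singly here. Explanations were not tested.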

Additional observations from a re-analysis of the deposited data

Results flagged for a closer look

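Features without a gene name were outside the comparison. In 2 of them both libraries of 1 line reached 1 FPKM and at least 4 times the highest control library. BGI_novel_G000098 had a mean of 1.17 FPKM in kd.1, at 1.19 and 1.16, and was listed at 0 in the kd.2 and control libraries. BGI_novel_G000450 had a mean of 1.25 FPKM in kd.2, at 1.22 and 1.28, with 0 and 1.18 in kd.1 and 0 and 0.03 in the control, so 1 kd.1 library was as high as kd.2. Groups of 2 libraries are too small for a search for single outlying libraries.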

How the results depend on the processing

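Over the 16 alternatives, 0 genes called in both settings changed sign. Called genes numbered 3496; without 1 library each in turn they ran from 1408 to 5507, those higher in kd.2 from 504 to 2212, those lower from 904 to 3295 and those with the control mean between the lines from 962 to 3015. With the 4 knockdown libraries alone 5517 genes were called, 2216 of them higher; that fit drops the wider control duplicates. At least 2-fold calls, 238 in the main setting, numbered 128 with a pseudocount of 1, 360 with no filter and 136 with a minimum of 5 FPKM, which tests fewer genes. The labels do not say that replicate numbers pair the samples, and with 2 per group the values could not show it: deviations of replicate 1 from the group mean correlated by 0.022, -0.0874 and 0.183 over genes for control and kd.1, control and kd.2, and kd.1 and kd.2. With replicate as a block 3340 genes were called, 1214 higher and 2126 lower, with 240 at least 2-fold apart. ZNF281 turned from -0.03 to 0.01 after median-ratio scaling, 0.06 after quantile normalization and from -0.09 (without kd.1 replicate 1) to 0.02 (without kd.1 replicate 2) with 1 library left out, and ZNF148 from -0.01 to 0.01 with a common FPKM sum, 0.04 after median-ratio scaling, 0.07 after quantile normalization and from -0.02 to 0.00 with 1 library left out. The cause of these shifts was not tested. Duplicates alone and an unknown depth limit what low genes can show.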

Other observations

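Immune recognition genes differed between the lines as well. Of 14 tested genes of MHC class I antigen presentation, 6 were lower in kd.2 (42.9%) and 1 higher (7.14%), median 0.03. Among all tested genes 20.3% were lower and 11.9% higher. The median of the list and its calls pointed different ways. HLA-C was at 62.7 and 62.2 FPKM in kd.2 against 86.8 and 90.1 in kd.1, with 85.6 and 85.3 in the control (log2 difference -0.50 ± 0.06, limma adjusted p = 0.000432). HLA-B was at 60.4 and 63.6 FPKM in kd.2 against 83.4 and 91.1 in kd.1, with 71.9 and 76.6 in the control (log2 difference -0.49 ± 0.07, limma adjusted p = 0.00114). HLA genes are polymorphic and alike, so these levels are uncertain. PSMB8, a subunit of the immunoproteasome, was at 22.7 and 23.9 FPKM in kd.2 against 41.5 and 43.8 in kd.1, with 35.9 and 37.4 in the control (log2 difference -0.87 ± 0.06, limma adjusted p = 4.48e-05). Of 22 interferon response genes, 4 were higher and 8 lower, median -0.28, and without kd.1 replicate 1, kd.1 replicate 2, kd.2 replicate 1 and kd.2 replicate 2 in turn, 6, 4, 3 and 5 were lower (and 14 without either control library). The interferon list thus had 18.2% higher and 36.4% lower with all libraries. OAS1, a sensor of double-stranded RNA, was at 39.8 and 36.6 FPKM in kd.2 against 71.1 and 70.6 in kd.1, with 42.1 and 44.5 in the control (log2 difference -0.89 ± 0.07, limma adjusted p = 4.34e-05), with kd.1 the high line. IFITM3, a membrane protein that blocks virus entry, was at 703 and 718 FPKM in kd.2 against 387 and 384 in kd.1, with 629.8 and 774 in the control (log2 difference 0.88 ± 0.10, limma adjusted p = 0.000417), with kd.1 the low line, and shares sequence with its neighbours.

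Among other groups, 6 of 18 heat shock chaperones were higher in kd.2 and 1 lower, median 0.18, and without kd.1 replicate 1, kd.1 replicate 2, kd.2 replicate 1 and kd.2 replicate 2 in turn, 3, 2, 2 and 1 were higher (and 9 without either control library). With all libraries 33.3% of the chaperones were higher and 5.56% lower, against 11.9% and 20.3% of all tested genes. HSPD1, the mitochondrial chaperonin, was at 574 and 558 FPKM in kd.2 against 374 and 365 in kd.1, with 467 and 479.9 in the control (log2 difference 0.61 ± 0.07, limma adjusted p = 0.000407). HOXC10, a homeobox factor, was at 13.1 and 12.5 FPKM in kd.2 against 23.9 and 23.5 in kd.1, with 21.5 and 21.7 in the control (log2 difference -0.88 ± 0.06, limma adjusted p = 3.91e-05), low in kd.2 alone. Of 14 NuRD repressor complex genes 4 were higher and 2 lower, median 0.06, and without kd.1 replicate 1, kd.1 replicate 2, kd.2 replicate 1 and kd.2 replicate 2 in turn, 3, 0, 0 and 0 were higher (and 5 without either control library). The NuRD shares with all libraries were 28.6% higher and 14.3% lower. MTA2, a subunit of that complex, was at 39.1 and 37.7 FPKM in kd.2 against 58.7 and 56.97 in kd.1, with 64.2 and 59.1 in the control (log2 difference -0.59 ± 0.07, limma adjusted p = 0.000362), also low in kd.2 alone. HNF4A, a hepatocyte transcription factor, was low everywhere, at 0.45 and 0.51 FPKM in kd.2 against 1.15 and 1.2 in kd.1, with 0.55 and 0.6 in the control (log2 difference -1.14 ± 0.15, limma adjusted p = 0.000848). NR4A2, an orphan nuclear receptor, was at 3.97 and 3.89 FPKM in kd.2 against 8.11 and 9.99 in kd.1, with 4.05 and 3.43 in the control (log2 difference -1.18 ± 0.12, limma adjusted p = 0.000248), high in kd.1 alone, as was LGR4, a receptor for R-spondins, at 14.8 and 14.04 FPKM in kd.2 against 25.7 and 25.9 in kd.1, with 15.8 and 11.3 in the control (log2 difference -0.83 ± 0.13, limma adjusted p = 0.00191).

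Of 18 axon guidance genes, 5 were higher and 5 lower, and without kd.1 replicate 1, kd.1 replicate 2, kd.2 replicate 1 and kd.2 replicate 2 in turn, 2, 4, 3 and 2 were higher (and 5 without either control library), and 4, 4, 3 and 4 were lower (and 5 without either control library). With all libraries 27.8% of the axon guidance genes were called in each direction, against 11.9% higher and 20.3% lower among all tested genes. The netrin receptor UNC5B was at 0.79 and 0.86 FPKM in kd.2 against 2.62 and 2.89 in kd.1, with 1.11 and 1.2 in the control (log2 difference -1.63 ± 0.13, limma adjusted p = 5.71e-05). NTN4, a netrin, was at 28.3 and 26.2 FPKM in kd.2 against 13.9 and 12.4 in kd.1, with 23.6 and 19.5 in the control (log2 difference 1.05 ± 0.10, limma adjusted p = 0.00018). EDNRB, an endothelin receptor, was at 6.7 and 6.63 FPKM in kd.2 against 3.5 and 2.95 in kd.1, with 4.86 and 4.89 in the control (log2 difference 1.03 ± 0.10, limma adjusted p = 0.000181). The receptor UNC5B was high in kd.1, the ligand NTN4 low there. Of the mesothelial markers, MSLN was at 34.96 and 38.2 FPKM in kd.2 against 56.1 and 66.1 in kd.1, with 52.6 and 58.7 in the control (log2 difference -0.73 ± 0.09, limma adjusted p = 0.0007) and CALB2 at 3.58 and 3.55 FPKM in kd.2 against 1.43 and 1.13 in kd.1, with 6.18 and 7.06 in the control (log2 difference 1.42 ± 0.13, limma adjusted p = 0.000119), opposite in direction.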
